A study of Mus musculus with 6 samples.

Results

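The genes described here are the Slc25 mitochondrial carriers, taken as every RefSeq protein-coding gene on mouse chromosomes 1 to 19 and X whose symbol starts with Slc25a and a digit. The rule found 47 of 21631 protein-coding genes and used no measured value. Their acetylation of histone H3 at lysine 27 (H3K27ac), a histone mark found at active promoters and enhancers, was taken from lists of CUT&RUN peaks. Nuclei of left ventricles (FVB mice, 8 to 12 weeks old) were sorted for PCM-1, a protein used to isolate cardiomyocyte nuclei. Both groups share strain, age, sort and antibody: WT carries no stated deletion, and HOM carries a CRISPR deletion of Nppa and Nppb, neighbouring natriuretic peptide genes on chromosome 4. Each group has 3 libraries with a peak list each, called WT1 to WT3 and HOM1 to HOM3 after the labelled replicate numbers. Values given as triples follow that order. The labels do not say whether libraries came from separate mice, how many animals entered each, or where the deletion ends, so p-values speak only of how these samples vary, and that variation may be technical.

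Most carriers of this family sit in the inner mitochondrial membrane and exchange metabolites between the cytosol and the matrix. They bring in ADP, phosphate and acylcarnitine and let out ATP, and they move the malate, aspartate and glutamate that pass reducing equivalents into the matrix. The heart, which depends on oxidative phosphorylation and fatty acid oxidation, is known for a high content of the ADP/ATP and phosphate carriers.

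Promoters of 4 leading carriers are printed to show the DNA beside which their peaks lay. They are Slc25a4, the ADP/ATP carrier of heart and muscle, Slc25a42 (coenzyme A), Slc25a15 (ornithine) and Slc25a20 (acylcarnitine). These are the carriers among the 10 with the strongest peaks in WT whose window lies wholly outside the annotated gene and holds a searched motif. RefSeq promoter sequences of GRCm38.p6 (mm10) were at hand for 36 of the 47 carriers, and 1 start was used per gene, the one with a peak nearby in most libraries. Each line gives the 250 bases before that start, 5′ to 3′ on the gene's strand, which is plus for Slc25a20 and minus for the others. Capitals mark matches on either strand to AAGGTCA (the site of ERR and related receptors), CCGGAAG (GABP), GGGCGG (the GC box) or CCAAT (the box of that name), or to the longer motifs of NRF1 and MEF2, and matches of different motifs may overlap.
Slc25a4: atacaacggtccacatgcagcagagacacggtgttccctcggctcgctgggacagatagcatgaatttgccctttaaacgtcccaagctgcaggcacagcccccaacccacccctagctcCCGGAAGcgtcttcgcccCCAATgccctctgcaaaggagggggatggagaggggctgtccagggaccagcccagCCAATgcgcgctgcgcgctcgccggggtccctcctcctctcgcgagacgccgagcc
Slc25a42: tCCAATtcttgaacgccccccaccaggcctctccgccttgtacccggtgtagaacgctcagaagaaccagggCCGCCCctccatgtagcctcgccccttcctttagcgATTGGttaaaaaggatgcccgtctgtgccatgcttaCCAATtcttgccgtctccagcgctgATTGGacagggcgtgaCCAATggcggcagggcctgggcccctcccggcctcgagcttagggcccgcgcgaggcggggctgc
Slc25a15: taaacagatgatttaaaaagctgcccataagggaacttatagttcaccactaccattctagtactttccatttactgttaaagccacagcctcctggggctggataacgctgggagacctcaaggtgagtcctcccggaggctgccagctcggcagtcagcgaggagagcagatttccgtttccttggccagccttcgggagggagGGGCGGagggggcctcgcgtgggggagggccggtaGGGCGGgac
Slc25a20: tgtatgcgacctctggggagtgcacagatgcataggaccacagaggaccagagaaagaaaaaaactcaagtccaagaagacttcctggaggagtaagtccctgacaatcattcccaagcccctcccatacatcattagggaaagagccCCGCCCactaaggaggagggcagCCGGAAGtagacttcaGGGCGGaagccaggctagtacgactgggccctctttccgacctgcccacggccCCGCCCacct

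In mm10 these windows are chr8:46211063-46211312 for Slc25a4, chr8:70212282-70212531 for Slc25a42, chr8:22398622-22398871 for Slc25a15 and chr9:108661886-108662135 for Slc25a20. The Slc25a42 window holds 5 CCAAT matches and 1 GC box, and the Slc25a20 window 3 GC boxes and 1 GABP match. Slc25a4 holds 1 GABP match and 2 CCAAT boxes, and Slc25a15 holds 2 GC boxes. Across the 36 carriers, 24 (66.7%) hold a GC box, beside 43.3% of 17274 promoters of the same length, and 17 (47.2%) a CCAAT box, beside 36.7%. CCGGAAG occurs in 6 carriers (16.7%, beside 9.3%), among them Slc25a4, Slc25a3 and Slc25a20. The NRF1 motif occurs in 2 carriers (5.56%, beside 5.4%), Slc25a3 and Slc25a31, the MEF2 motif in 2 (5.56%, beside 3.12%), Slc25a10 and Slc25a22, and AAGGTCA in Slc25a34 alone (2.78%, beside 3.59%). A match describes letters in this window and is no evidence of binding. Promoters of the 14 carriers with a start entry and a peak in all WT libraries had a median of 14.5 CpG, and those of the 11 with no peak a median of 10, with ranges of 1 to 27 and 2 to 25 that overlap. Over all genes the medians were 17 for those with a peak in all WT libraries and 3 for those with no peak. In genes with several starts the start was chosen by these same peaks, so motif shares and CpG medians are not independent of them.

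The 6 lists differ widely in length, and every count below has to be read against that. WT1, WT2 and WT3 hold 21340, 72362 and 106605 peaks, and HOM1, HOM2 and HOM3 hold 48102, 1462 and 15184. The deposited lists hold no read counts, so sequencing depth is unknown. WT1 and HOM1 have 149 and 156 peaks on the Y chromosome and the other 4 libraries 18 to 44. These counts were not scaled to list length, and HOM2 has 19 of them among its 1462 peaks. Of 12 cardiomyocyte markers, 11 to 12 had a peak over the gene in the 5 libraries other than HOM2, which had none. In WT3, the longest list, 2 of 10 fibroblast, 6 of 10 endothelial, 6 of 10 smooth muscle and pericyte and 3 of 10 immune markers had a peak over the gene. Within 1 kb of gene ends these were 0, 0, 4 and 2 of 10. Of these lists, 8 fibroblast, 4 endothelial, 3 smooth muscle and pericyte and 7 immune markers had no peak in any library, among them Col1a1, Pdgfra, Cdh5, Vwf and Ptprc. Those with a peak in most libraries were Pecam1, Abcc9 and Cspg4 (5 libraries each) and Fbln1, Notch3 and Spi1 (4 each). The part of other cell types in the carrier peaks was not tested, and fewer nuclei of a type cannot be told apart from less signal per nucleus.

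A carrier was counted as acetylated in a library when a peak overlapped its annotated gene body plus 1 kb on each side by at least 1 bp. By this measure 17 carriers (36.2%) were acetylated in WT1, beside 20.6% of all protein-coding genes. WT2 and WT3 had 31 (66%, beside 42.9%) and 34 carriers (72.3%, beside 53%). In every WT library the carriers' share was above that of all genes. HOM1 had 24 carriers (51.1%, beside 33.3%), HOM2 had 2 (4.26%, beside 1.86%) and HOM3 had 13 (27.7%, beside 16%). The order of the libraries followed the length of their lists in carriers and in all genes alike.

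**Figure D1:**
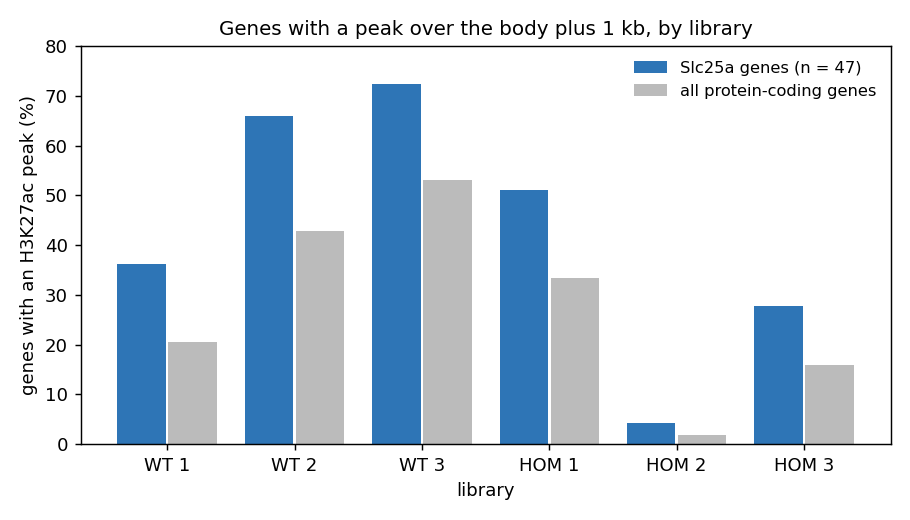
Percentage of genes with an H3K27ac peak over the body plus 1 kb in each library (x axis), for the 47 Slc25a genes (blue bars) and 21631 protein-coding genes (grey bars). The blue bar is the higher in all 6 libraries, from 36.2% against 20.6% in WT1 to 72.3% against 53% in WT3, and both are lowest in HOM2.

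All 3 WT libraries had a peak at 17 carriers (36.2%, beside 19.8% of all genes), and without WT1, the shortest WT list, this count was 31 (66%, beside 41.6%). The 17 include the ADP/ATP carrier of muscle, the phosphate carrier, both aspartate/glutamate carriers, the oxoglutarate/malate carrier and the carnitine-acylcarnitine carrier. All 17 also had a peak in HOM1. A peak in the 5 libraries other than HOM2 was found at 12 carriers (25.5%, beside 12.5%), and in all 6 libraries at 2 (4.26%, beside 1.58%), Slc25a13 and Slc25a33. WT2 and WT3 but not WT1 had a peak at 14 carriers (29.8%, beside 21.8%), and 3 carriers had a peak in WT3 alone. No library had a peak at 13 carriers (27.7%, beside 45.3%).

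Carriers are somewhat longer than other genes, with a median gene length of 21491 bp beside 17329 bp, and a longer window meets more peaks. Of the 15 carriers up to 10 kb long, 7 (46.7%) had a peak in all WT libraries, beside 9.18% of 7742 genes of that length. Of the 15 between 10 and 30 kb, 4 (26.7%) did, beside 18.3% of genes, and of the 17 above 30 kb, 6 (35.3%), beside 32.1%. The carriers' share was thus farthest from that of all genes among the short genes and close to it among the long ones. Within 1 kb of either gene end, a measure less bound to length, 14 carriers (29.8%) had a peak in all WT libraries, beside 10.9% of genes.

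The strength of a carrier's strongest peak, as the fold enrichment given by the authors' peak caller, was ranked within each library among all protein-coding genes, with genes without a peak tied at the bottom. Genes with tied values share the middle of their ranks, so that a gene without a peak stands at 39.7, 28.6 and 23.5 in WT1, WT2 and WT3. The mean of the 3 WT percentiles was above 90 for 8 carriers (17%, beside 8.64% of genes). In that order these were Slc25a4, Slc25a13, Slc25a22, Slc25a12, Slc25a42, Slc25a26, Slc25a15 and Slc25a34, followed by Slc25a25 and Slc25a20. Their means ran from 96.2 ± 2.46 (SD, n = 3) for Slc25a4 to 89.5 ± 7.32 for Slc25a20, so neighbours in this order do not differ beyond their spread.

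**Figure D2:**
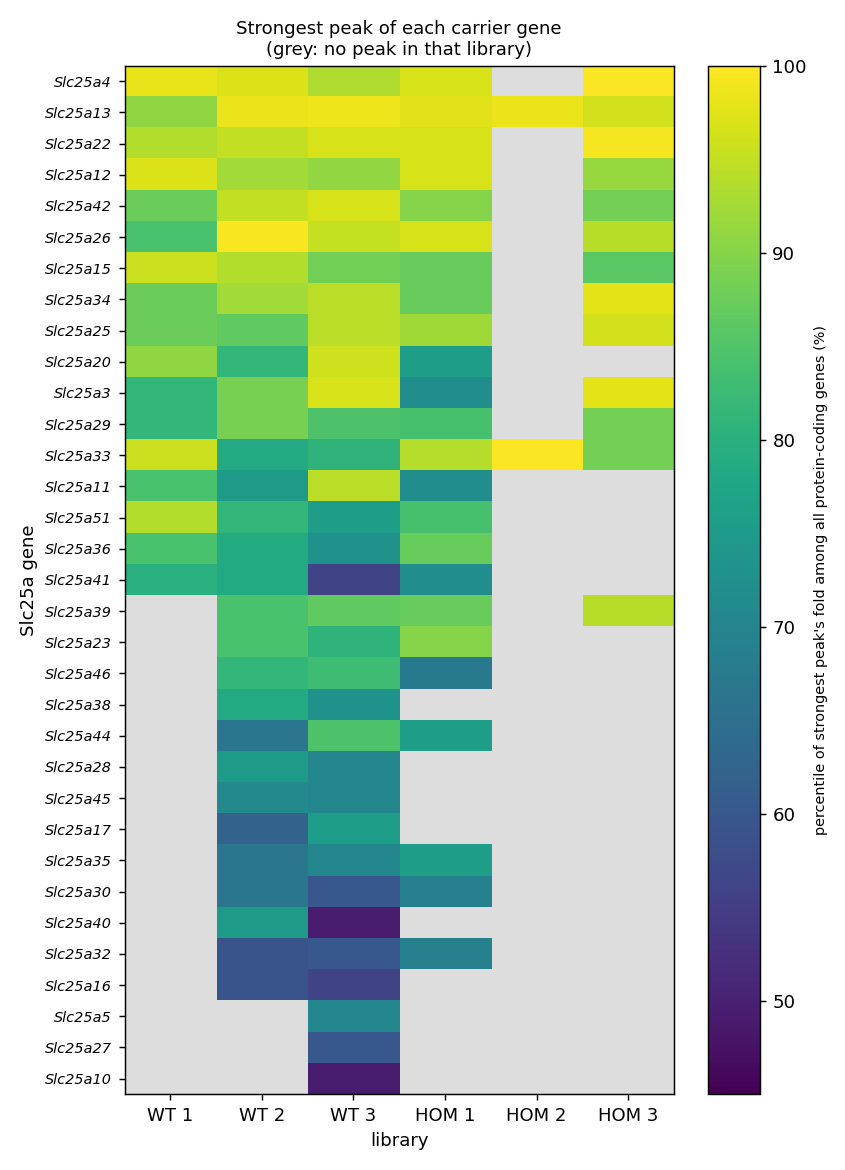
Percentile of the strongest peak's fold among all protein-coding genes, for carriers with a peak in any library (rows, ordered by the WT mean) in the 6 libraries (columns); grey marks no peak. Slc25a4, Slc25a13, Slc25a22 and Slc25a12 are above 90 in all WT libraries and in HOM1 and HOM3, and the column of HOM2 is grey except at Slc25a13 and Slc25a33.

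Among the 3 adenine nucleotide carriers, acetylation was concentrated at Slc25a4, which encodes the ADP/ATP carrier of heart and skeletal muscle. Slc25a4 lies at chr8:46207168-46211062, and no other protein-coding gene is within its window. Peaks covered 780, 2842 and 4096 bp of the window in WT1, WT2 and WT3, and 1374, 0 and 513 bp in HOM1, HOM2 and HOM3. HOM1 lay inside the WT range and HOM3 below it. In WT its strongest peak stood at percentiles 98.1, 97 and 93.4, and in HOM1 and HOM3 at 96.7 and 99.6. A stretch of 315 bp, chr8:46211469-46211783, was covered in all 5 libraries other than HOM2, with its middle at -564 bp from the start and outside the printed promoter. Peaks touched the printed bases themselves in WT2 and WT3 and HOM3, over 108, 56 and 42 bp. Slc25a5, the ADP/ATP carrier gene of many tissues, which lies on X, had peaks in WT3 only, covering 1310 bp. Slc25a31, the testis form, had no peak in any library.

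All 4 X-linked carriers were weakly marked or unmarked, as Slc25a14, Slc25a43 and Slc25a53 had no peak. The share of the 966 X-linked protein-coding genes with a peak ran from 0.414% in HOM2 to 29.5% in WT3, beside 1.93% and 54.1% of autosomal genes.

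Of the aspartate/glutamate and glutamate carriers, 3 of 4 were acetylated in all WT libraries, with a median WT percentile over the group of 94.3. Slc25a13 encodes citrin, the aspartate/glutamate carrier best known from liver, and Slc25a12 encodes aralar, its counterpart in excitable tissues. Peaks at Slc25a13, a gene of 176087 bp at chr6:6041218-6217304, covered 4379, 28030 and 45743 bp in WT1, WT2 and WT3, and 14641, 83 and 3361 bp in HOM1, HOM2 and HOM3. By covered length it ranked 229, 110 and 109 among all protein-coding genes in WT, and 130 and 186 in HOM1 and HOM3. This rank favours long genes. As a share of its window, peaks covered 2.46%, 15.7% and 25.7% in WT, beside 13.2%, 48.2% and 69.5% at Slc25a4. The widest Slc25a13 peak in WT3 spanned 11400 bp, wider than that of any other carrier in any library.

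The acetylation of Slc25a13 was not spread evenly. In the first 10% of the gene, counted from its start, peaks covered 20.6%, 63% and 85.9% in WT1, WT2 and WT3, and 39.9% and 14.6% in HOM1 and HOM3. The next 10% had 2.69%, 49.8% and 78.2% in WT, and the one after it 0%, 5.58% and 13.6%, while the last 10% had none in any library. In all, 5 stretches were covered in each of the 5 longer lists, all within 10 kb after the start, the longest being 477 bp at chr6:6215662-6216138.

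**Figure D3:**
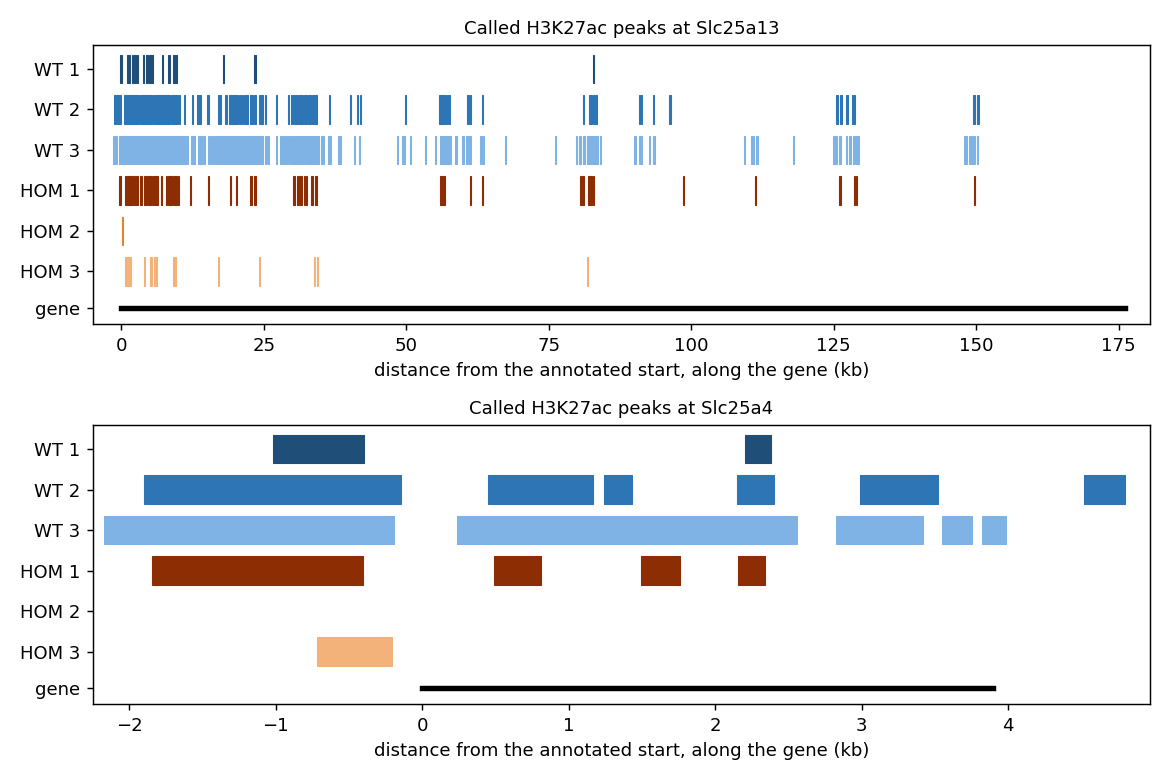
Called peaks (coloured blocks) of the 6 libraries (rows) at Slc25a13 and Slc25a4 by distance from the annotated start in kb, with the gene as a black bar. At Slc25a13 the peaks crowd into the start of the gene, with 85.9% of its first 10% covered in WT3, and at Slc25a4 each library with peaks has one before the start.

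Slc25a12, at chr2:71274270-71367781, was most covered a little further into the gene. It was covered over 2194, 6096 and 13908 bp in WT and over 3995, 0 and 592 bp in HOM1, HOM2 and HOM3. The first 10% of the gene was covered over 3.97%, 11% and 25.8% in WT. Between 10% and 20% of the way along the gene the share was 11.2%, 28.2% and 59.8% in WT and 21.5% and 6.3% in HOM1 and HOM3, and beyond 50% there was no peak in any library. A stretch of 554 bp at chr2:71353476-71354029 was covered in the 5 longer lists, the longest such stretch in any carrier, with its middle 14003 bp after the start. The glutamate carrier gene Slc25a22 was covered over 817, 4117 and 6141 bp in WT and over 2311, 0 and 1441 bp in HOM. Its strongest peak ranked at percentiles 93.6, 94.9 and 96.6 in WT and 96.7 and 99.1 in HOM1 and HOM3. Slc25a18, the other glutamate carrier gene, had no peak in any library.

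Of the phosphate and ATP-Mg/phosphate carriers, 3 of 5 were acetylated in all WT libraries. Slc25a3 encodes the phosphate carrier, which supplies phosphate for ATP synthesis. Its window was covered over 177, 1764 and 3569 bp in WT and over 806, 0 and 369 bp in HOM, so both HOM1 and HOM3 were above WT1. Its strongest peak ranked at percentiles 81.4, 88.8 and 96.6 in WT, and at 71.9 and 97.6 in HOM1 and HOM3. Slc25a25, a calcium-regulated ATP-Mg/phosphate carrier gene, was covered over 708, 3420 and 7381 bp in WT and over 2541, 0 and 340 bp in HOM. Slc25a23 had peaks in WT2 and WT3 and HOM1, and Slc25a24 had none.

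Slc25a41, the remaining member of that group, was covered over 214, 425 and 531 bp in WT and over 166, 0 and 0 bp in HOM. It was the single carrier whose covered length in each HOM library was below that in each WT library (1 of 47, beside 3.01% of all genes). All 5 of its peaks over the 6 libraries also lay within 1 kb of the neighbouring gene Khsrp, so they cannot be assigned to the carrier. With lists of equal length and without HOM2 no peak was left there, and the carriers lower in each HOM library were instead Slc25a4 and Slc25a12. Such carriers were 2 there (beside 2.63% of genes). Equal numbers of peaks did not make the covered lengths equal. The cut lists still covered 5.27, 14.2 and 24.2 Mb in WT1, WT2 and WT3, and 8.52 and 4.54 Mb in HOM1 and HOM3. With the full lists but without WT1 such carriers were 29 (61.7%, beside 37.5%), and without HOM1 they were 13 (27.7%, beside 16%).

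In the carboxylate group 1 of 4 was acetylated in all WT libraries. Slc25a11, the oxoglutarate/malate carrier of the malate-aspartate shuttle, was covered over 198, 1649 and 2115 bp in WT and over 497, 0 and 0 bp in HOM. Of its 12 peaks, 11 also lay within 1 kb of Rnf167 or Gp1ba, neighbouring genes. The dicarboxylate carrier gene Slc25a10 had peaks in WT3 alone, over 486 bp, and the citrate carrier gene Slc25a1 and Slc25a21 had none. Slc25a21 is the longest carrier gene at 484839 bp.

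Among the other amino acid and acylcarnitine carriers, 3 of 6 were acetylated in all WT libraries. Slc25a20, which takes acylcarnitine into the matrix for oxidation, was covered over 340, 1053 and 1959 bp in WT and over 827, 0 and 0 bp in HOM. Its strongest peak ranked at percentiles 90.9, 81.5 and 95.9 in WT and 75.8 in HOM1. The printed promoter was touched in WT2 and WT3, over 154 and 217 bp. Slc25a15, an ornithine carrier gene, had exactly 1 peak in each of the 5 longer lists, covering 363, 540 and 827 bp in WT and 660 and 281 bp in HOM1 and HOM3. These peaks shared 218 bp at chr8:22398788-22399005, a stretch that runs into the printed promoter, where peaks of all 5 lists were found. Slc25a29 was the third, while Slc25a38 had peaks in WT2 and WT3, Slc25a44 in these and HOM1, and Slc25a2 in none.

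Of the 11 cofactor, nucleotide and glutathione carriers, 5 had a peak in all WT libraries. Slc25a42, a coenzyme A carrier gene, was covered over 383, 6875 and 12327 bp in WT and over 2438, 0 and 415 bp in HOM. Its printed promoter was touched in WT2 and WT3, over 189 and 250 bp. Slc25a26, which carries S-adenosylmethionine, was covered over 356, 4940 and 8013 bp in WT and over 2397, 0 and 208 bp in HOM. Their strongest peaks ranked between percentiles 84.2 and 99.5 in WT. Slc25a33, a pyrimidine nucleotide carrier gene, was one of the 2 carriers with peaks in HOM2, where they covered 172 bp. The remaining carriers of the 5 were Slc25a36 and Slc25a51, both also marked in HOM1. Slc25a16, Slc25a17 and Slc25a40 had no peak in HOM, Slc25a32 had one in 1 HOM library, and Slc25a39, a glutathione carrier gene, was covered over 748 and 367 bp in HOM1 and HOM3.

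None of the 2 iron and 3 uncoupling-protein-like carriers was acetylated in all WT libraries. Slc25a28, one of the mitoferrins, had peaks in WT2 and WT3, and Slc25a37, the other, had none. Slc25a30 had peaks in WT2 and WT3 and 1 HOM library, Slc25a27 in WT3 alone and Slc25a14 in none. Of the 9 carriers given no substrate here, Slc25a34 was acetylated in all WT libraries, over 202, 2462 and 4545 bp, and in HOM1 and HOM3, over 1365 and 272 bp. Of the other members of this group, Slc25a35, Slc25a45 and Slc25a46 had peaks in WT2 and WT3, Slc25a35 and Slc25a46 also in HOM1, and Slc25a43, Slc25a47, Slc25a48, Slc25a53 and Slc25a54 had none.

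Neighbouring genes limit some of these assignments. The windows of 20 carriers overlap the window of another protein-coding gene, and at 3 carriers, Slc25a27, Slc25a32 and Slc25a41, each peak also lay in such a neighbouring window. For Slc25a4, Slc25a12, Slc25a13, Slc25a15, Slc25a20, Slc25a3 and Slc25a29 no window of another gene overlaps.

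Peaks near the start of the gene were counted apart. Of the 36 carriers with an annotated start in the promoter table, 14, 22 and 25 had a peak within 1 kb of it in WT1, WT2 and WT3 (38.9%, 61.1% and 69.4%), beside 12.4%, 33% and 43.3% of 17274 genes. HOM1, HOM2 and HOM3 had 16, 1 and 8 (44.4%, 2.78% and 22.2%), beside 23.7%, 0.365% and 8.46%. The summit of the strongest peak was within 1 kb of a start at 11 of 14, 15 of 23 and 19 of 25 carriers with a start and a peak in WT1, WT2 and WT3. The corresponding counts were 11 of 17, 1 of 2 and 4 of 12 in HOM1, HOM2 and HOM3. The share over all marked genes was not computed for summits, so these counts are not compared with other genes. Summits more than 10 kb from a start belonged to 3 carriers. For Slc25a33 they were at 17057, 16908, 17046 and 16909 bp in WT1, WT2, HOM1 and HOM2. For Slc25a12 they were at 27356, 12290 and 13810 bp in WT2, WT3 and HOM3, and for Slc25a30 at 13612 and 13914 bp in WT2 and WT3.

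**Figure D4:**
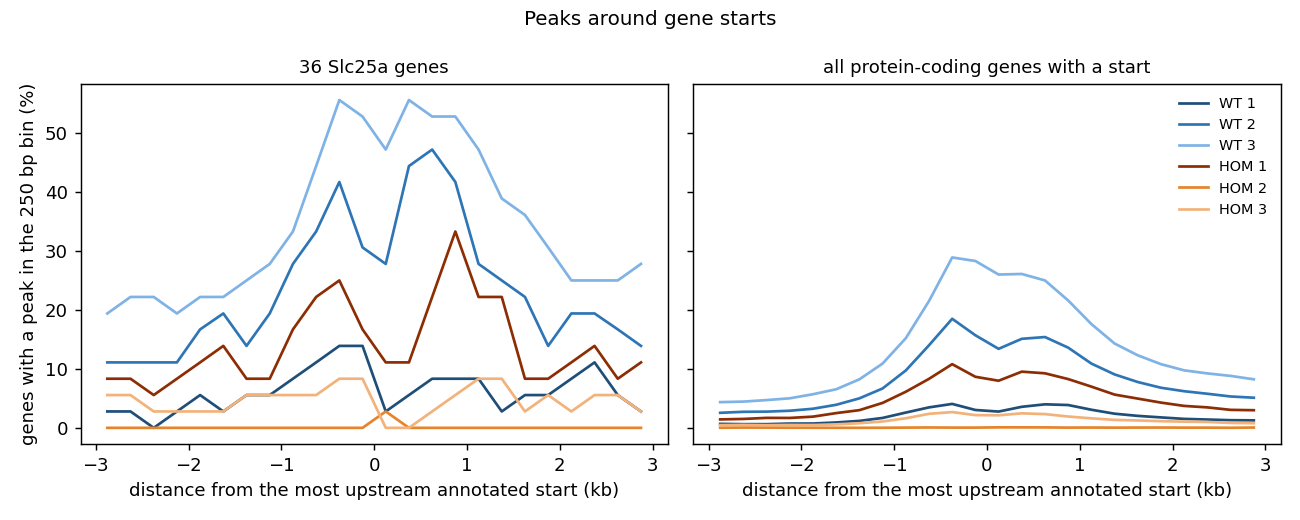
Percentage of genes with a peak in each 250 bp bin (y axis) by distance in kb from the most upstream annotated start (x axis), for 36 carriers (left) and 17274 protein-coding genes (right), 1 line per library. In WT2 the carriers' line has maxima of 41.7% before and 47.2% after the start, with 27.8% in the bin at the start between them.

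Peak widths and ranks among peaks were described within each library. The widest peak of each marked carrier had a median of 235, 575 and 871 bp in WT1, WT2 and WT3, beside library medians for all peaks of 241, 286 and 291 bp. HOM1 and HOM3 had 448.5 and 336 bp, beside 260 and 232 bp. A widest peak gains from the number of peaks in a gene, so these medians are not of the same kind. Peaks wider than 1000 bp were present at 0 of 17, 7 of 31 and 14 of 34 marked carriers in WT. In HOM1, HOM2 and HOM3 they were present at 3 of 24, 0 of 2 and 1 of 13. The share over all genes was not computed for this width, so these counts are not compared with other genes or between genotypes. Among all peaks of the library, the strongest peak of the carrier was above the median fold at 8 of 17, 25 of 31 and 30 of 34 marked carriers in WT1, WT2 and WT3 (47.1%, 80.6% and 88.2%, beside 52%, 72.8% and 78.9% of all marked genes). In HOM1 and HOM3 it was so at 15 of 24 and 9 of 13 (62.5% and 69.2%, beside 66.4% and 62.7%). The strongest of several peaks also gains from their number.

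Between the genotypes, WT libraries had 58.2 ± 19.3% of carriers acetylated (SD, n = 3) and HOM libraries 27.7 ± 23.4% (SD, n = 3), which is -30.5 percentage points for HOM minus WT. Over all protein-coding genes it was 38.8 ± 16.6% and 17 ± 15.7%, a difference of -21.8 points. No test was run on the share over the carriers, since they were proposed with earlier results of these data known. Without HOM2 the carriers' difference was -18.8 points and that of all genes -14.2. Between WT1 and HOM1, the libraries with the highest raw counts of Y-chromosome peaks, the carriers' difference was 14.9 points. That sets a single library of each genotype side by side, with lists of 21340 and 48102 peaks. Among the other 4 libraries the difference was -53.2 points, so the sign differed between these sets. The 5 lists other than HOM2, cut to their 15184 strongest peaks by fold, gave -4.26 points for carriers and -2.61 for all genes. Lists cut in this way still differed in the length they covered. Genotype and list length cannot be told apart in these numbers.

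No carrier (0 of 47) had a peak in all WT and no HOM libraries, beside 1.05% of all genes, and none had the reverse pattern, beside 0%. Without WT1 the first count was 7 (14.9%, beside 9.85%), and without HOM1 it was 5 (10.6%, beside 7.04%). At least 1 WT and no HOM library had a peak at 10 carriers (21.3%, beside 20.6%), and the opposite held for 0 carriers (beside 0.291%). At equal list length and without HOM2, a peak in all WT and no HOM libraries and its reverse each held for 0 carriers, beside 0.684% and 0.222% of genes. There, 14, 15 and 19 carriers were marked in WT (beside 16.7%, 18.9% and 22.6%) and 15 and 13 in HOM1 and HOM3 (beside 17.6% and 16%). The 9 carriers marked in all 5 of these lists (19.1%, beside 9.12%) were Slc25a4, Slc25a13, Slc25a22, Slc25a12, Slc25a42, Slc25a26, Slc25a15, Slc25a34 and Slc25a25.

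Covered length was compared for every protein-coding gene on the scale log2(covered bp + 100) with a two-sided exact permutation test over the 20 assignments of libraries. With 3 against 3 the smallest p is 0.1, so no gene could pass 0.05, and after Benjamini-Hochberg adjustment over all genes the smallest value was 1. The median HOM minus WT difference was -1.47 over the carriers and -0.48 over all genes. A gene without a peak has a difference of 0, so both medians and the shares below depend on how many genes are marked. At equal list length without HOM2 both medians were 0. The difference was 0 at 13 carriers (27.7%, beside 45.3% of all genes), those without peaks. At 34 (72.3%, beside 54.1%) it was below 0 and at none above (beside 0.592%). For Slc25a4 it was -2.30, from a WT mean of 11.11 ± 1.18 to a HOM mean of 8.81 ± 1.98 (SD over 3 libraries, exact permutation p = 0.2). For Slc25a13 it was -3.09 (14.13 ± 1.77 and 11.04 ± 3.23, exact permutation p = 0.2, n = 3 each) and for Slc25a3 -1.83 (10.27 ± 1.93 and 8.45 ± 1.63, exact permutation p = 0.3, n = 3 each). Slc25a41, at -1.76 (8.88 ± 0.52 and 7.11 ± 0.81, n = 3 each), had the smallest possible exact permutation p of 0.1.

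At the 17 carriers with a peak in all WT libraries, WT1 was the lowest WT library and WT3 the highest at each one. HOM1 lay within the WT range at 16 of them and below it at Slc25a41, beside 16.3% of all 4292 genes with a peak in each WT library. HOM3 lay within the range at 4 and below it at 13, 5 of which had no peak, beside 80.4% of those genes. HOM2 was below the WT range at all 17, as at 100% of those genes. Relative to the length covered genome wide, peaks at carriers took 1918, 2600 and 2627 bp per covered Mb in WT1, WT2 and WT3, and 2404, 862 and 1965 bp in HOM1, HOM2 and HOM3. On this scale HOM1 and HOM3 lay within the range of the WT libraries, and HOM2, with 3 peaks at carriers, below it.

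**Figure D5:**
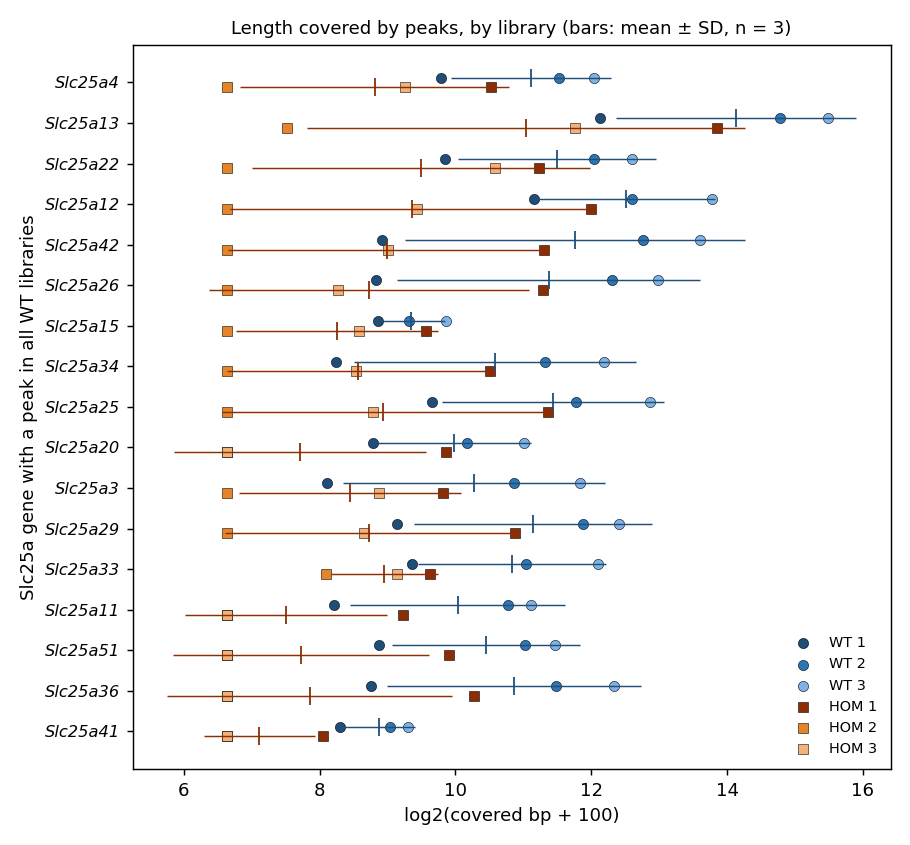
Length covered by peaks on the log2(bp + 100) scale (x axis) at the 17 carriers with a peak in all WT libraries (rows), with WT libraries as circles, HOM libraries as squares, and bars for the mean ± SD (n = 3). The groups overlap at 16 carriers, where HOM1 lies above WT1, and do not overlap at Slc25a41.

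Other genes of mitochondrial transport were read the same way from 4 further lists, also chosen with earlier results of these data known. Beside these lists, 19.8% of all protein-coding genes had a peak in all WT libraries. In HOM1, HOM2 and HOM3 the shares of all genes were 33.3%, 1.86% and 16%. Of 12 genes of the shuttles and of carnitine metabolism that work with the carriers, 11 had a peak in all WT libraries, and 12, 0 and 9 in HOM1, HOM2 and HOM3. Ckmt2, the mitochondrial creatine kinase of muscle, was covered over 1696, 4477 and 8128 bp in WT and over 3534, 0 and 397 bp in HOM. Cpt1a and Cpt1b, which make the acylcarnitine that Slc25a20 carries, were covered over 395, 5360 and 8744 bp and over 177, 2216 and 5080 bp in WT. In HOM they were covered over 2100, 0 and 680 bp and over 827, 0 and 696 bp, inside the WT range except in HOM2. Gpd2, named after its values were seen, was the member without a peak in WT1. The median WT percentile over this list was 90.1, beside 61.6 over the 47 carriers, and was not computed over all genes.

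Of 5 members of the carrier superfamily with other names, 3 had a peak in all WT libraries. Ucp3, the uncoupling protein of muscle, stood at a mean WT percentile of 96.9, and Mtch1 and Mtch2 at 85.5 and 86.9. Ucp1, the uncoupling protein of brown fat, had a peak in no library. Of 20 other transport genes of the mitochondrial membranes, 10 had a peak in all WT libraries. Micu2, a regulator of the calcium uniporter, and Sfxn5 had a peak in all 6 libraries, while Mcub and Sfxn1 had none. Abcb10 had a peak in 5 libraries, as had Mpc2, Sfxn2, Slc8b1, Vdac1, Vdac2 and Vdac3. Of 11 genes of the machinery that imports carriers, 5 had a peak in all WT libraries, and Timm10 and Tomm70a, a receptor for carrier precursors, in 5 libraries each. Tomm22 had none. Lower covered length in every HOM than every WT library was found at 1 of 12 shuttle and carnitine genes (Ppif), 1 of 5 superfamily members (Mtch2), 3 of 20 transport genes (Sfxn2, Vdac2 and Abcb10) and 0 of 11 import genes, beside the 3.01% of all genes.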

How the data were processed

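H3K27ac CUT&RUN peak lists of 6 libraries were used. BWA, MACS2 and mm10 are named by the submitters' processing notes, without versions. Lists are in narrow peak layout, 1 per library, not pooled. Per the deposited values, the authors' score is the whole part of 10 times the −log10 q. The lists also hold, as deposited by the authors, a fold enrichment ratio, a −log10 p and a −log10 q for each peak. All were used only within a list.

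Genes and starts came from RefSeq tables of GRCm38.p6, in which all 138 listed genes were found. Positions are 1-based. Coverage per gene was the length of peaks within the gene plus 1 kb on each side. Covered lengths were compared by exact permutation over libraries for all 21631 genes, with 100 bp added before log2. Coverage and test were tested on simulated data. Covered lengths in the libraries with peaks were given for 8 carriers in any case and for the 10 with the highest mean WT percentile. They were also given for those whose covered length did not overlap between genotypes. Percentiles by library and HOM minus WT differences were given for some of these carriers. From further lists, the 3 genes marked in most libraries and those marked in none were named. The members and lists were chosen with earlier results of these data known. Printing only promoters outside the annotated gene was decided after seeing the data. Alternatives were other peak thresholds, windows, overlaps, list lengths, constants and scales, left-out libraries and the replicate block. Protein sequences were not analysed here, and 1 carrier is counted but not reported by name. The scripts ran under Python 3.11.15 with scipy 1.17.1, numpy 2.4.6, pandas 2.3.3 and, for plots, matplotlib 3.10.9.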

Additional observations from a re-analysis of the deposited data

How the results depend on the processing

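With 3 libraries a group the exact test stops at 0.1, so a result that keeps its sign gains no significance by that. The alternative values include those of the replicate block, which equal the main ones by construction. Of 255 alternative values at 15 named carriers, 232 were below 0 as in the report and 17 were the values of 0 at Slc25a31. Another 5 came to 0: Slc25a15 and Slc25a41 over the gene body without flanks, Slc25a5 without WT3, and Slc25a5 and Slc25a41 at equal list length without HOM2. In that last setting Slc25a22 turned to 0.17. Carriers with a peak in all WT libraries, 17 with all peaks, were 11 with the stronger 50% of peaks, 6 with a −log10 q of at least 5, 11 over the gene body without flanks, 9 at equal list length without HOM2 and 17 to 31 with 1 library left out. Carriers lower in each HOM library were 0 over the gene body without flanks, 2 at gene ends (Slc25a41 and Slc25a51), 2 at equal list length without HOM2 (Slc25a4 and Slc25a12) and 1 to 29 with 1 library left out. The count stayed 1 but was Slc25a4 with the stronger 50% of peaks and with a −log10 q of at least 5, and Slc25a11 per covered Mb. Those with a peak in all WT and no HOM libraries were 0 to 7 with 1 library left out. Shares of all genes for such counts were not computed beyond those given above, so the remaining counts are not compared with other genes. Leaving out HOM2 and setting equal list length together gave a difference in share of -4.26 points, where leaving out HOM2 alone gave -18.8, and a median carrier percentile of 40.3, beside 61.6. The difference in share was 14.9 points between WT1 and HOM1 and -53.2 among the other 4 libraries. With 1 library left out the share difference was -42.2 to -18.8 points. Fewer libraries make a pattern over all of them easier to meet; otherwise the cause was not tested.

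With the replicate number as a block the share difference is by construction -30.5 points, and the smallest possible sign-flip p is 0.25. Deviations of same-numbered libraries had r over 11832 genes of -0.42, -0.34 and -0.14. Among differently numbered libraries, WT1 had 0.32 with HOM2 and 0.15 with HOM3. WT2 had 0.38 with HOM1 and -0.06 with HOM3, and WT3 had 0.14 with HOM1 and -0.06 with HOM2. A link of these values to list length was not tested. The values cannot tell whether same-numbered libraries were handled as pairs. The labels do not state pairs, and the numbers are not read as such.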
